A study of Mus musculus with 12 samples.

Results

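The messenger RNA content of control-transfected Neuro-2a cells was described from 4 of the 12 libraries of the series, those whose treatment label is miR-Con. Neuro-2a is an established mouse neuroblastoma line, derived from a tumour of the sympathetic nervous system lineage and often used as a neuron-like model. The cells carried the label WT, and the labels name no allele altered for the study. The other 8 libraries, 4 with a miR-155 mimic and 4 with a miR-155 inhibitor, are used only as a range beside the control levels. The cells of all 12 libraries had received a small RNA and the RNA Fit reagent without serum or antibiotics, had growth medium with 10% fetal bovine serum again after 4 h and were kept to day 2, so every level below is that of transfected cells and not of an untouched culture. Separate cultures behind the 4 libraries are not stated in the labels, so their spread may be technical. By its title the study asks about miR-155 and PPARγ, PGC-1α, ERRα and Drp1; the levels below are the baseline for that and test none of it.

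Sympathetic neuroblasts are neural crest derivatives whose fate is set by a small circuit of transcription factors, among them PHOX2A, HAND2, GATA2 and GATA3. Mature cells of that lineage make noradrenaline from tyrosine through tyrosine hydroxylase, aromatic amino acid decarboxylase and dopamine beta-hydroxylase, load it into vesicles, and release it together with chromogranins and peptides. They depend on neurotrophins and on GDNF family ligands, the latter acting through RET. Bulk RNA sequencing averages all cells of a culture, so fewer cells of a type and less RNA per cell cannot be told apart.

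Total counts were 64723954, 67950816, 74200532 and 68734250 in controls 1 to 4, and 13711 to 13836 of the 15767 genes in the tables had at least 1 count in a control library. TPM is a per-length measure that divides a gene's reads by its length and scales each library to the same total. The length behind the deposited TPM could be read back from the counts. For 97.0% of 10033 genes it matched, within 1%, the summed length of all annotated transcripts of the gene, and for 6.89% the length of the union of its exons. The median present gene has a summed length 1.91 times its exon union, with a 5th to 95th percentile range of 1.00 to 3.96. The deposited values therefore place a gene with many annotated transcripts too low beside a gene with 1. A second value, called corrected TPM here, was computed from the counts with the exon union, and the order of genes is read only from it. It differs from the deposited value by over 1.5 times in 38.2% of present genes, and a gene with a single annotated transcript has 0.567 of its deposited value. Plain values below are deposited TPM for controls 1 to 4 in that order, and means are given with the SD over the 4 libraries (n = 4). In comparisons of a gene between libraries its own length cancels, while the scaling of each library does not.

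A gene was called present when it had at least 1 TPM in each control library and near 0 when it had under 0.1 TPM in each. Unless stated otherwise, present members of a list are given out of all genes sought, also those not in the tables. There were 11224 present genes (71.2% of the 15767), 1776 near 0 and 2767 between, and 904 had 0 counts in all 4 controls. With corrected TPM 11220 genes were present, 11064 of them by both values. A value close to 1 TPM rested on a median of 73.5 counts, and 3 counts, the limit allowed by a count of 0, were 0.0404 to 0.0464 CPM, reads scaled to the library total. These limits cover counting error only. The median coefficient of variation of present genes was 13.3% over the 4 libraries and 8.53% over controls 1 to 3.

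Control libraries 4 and 2 stood apart from their companions, in different ways. Among 11602 genes with a mean of at least 1 TPM, control 4 was over 1.5 times above the mean of the other 3 for 1150 genes (9.91%) and below it for 725 (6.25%). With CPM in place of TPM these counts were 980 and 869, so the excess of higher genes depends on the scaling. The first count by TPM was 1741 without control 1 and 857 without control 2. Control 2 was above for 89 genes (0.767%) and below for 1607 (13.9%), and the latter had a median length behind the deposited TPM of 1.61 times that of all genes tested. Controls 1 and 3 differed this much, either way, for 465 (4.01%) and 403 genes (3.47%). The mean that control 2 was set against includes control 4, and the reverse, so their counts are not independent. The pattern of control 4 recurred in the libraries with the number 4 of the other groups. Of its 1150 higher genes, 1055 were also higher in mimic 4 than in the mean of mimic 1 to 3, and 1094 higher in inhibitor 4; of its 725 lower genes, 669 and 667 were lower. Mimic 4 passed 1.5 times higher for 4.9% and lower for 7.18% of genes, and inhibitor 4 for 6.39% and 5.29%. The genes lower in control 2 did not recur in this way, since 470 and 519 of the 1607 were lower in mimic 2 and inhibitor 2, which passed 1.5 times lower for 1.86% and 1.92% of genes. What the number 4 stands for is not given in the labels, and control 4 is therefore shown apart throughout. For 95.5% of present genes, the mean of the 8 mimic and inhibitor libraries lay within the range of the 4 controls. That range includes controls 2 and 4, and the mean pools both treatments. The share therefore cannot show whether either treatment changed a gene.

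The most abundant transcripts served protein synthesis, the cytoskeleton and protein folding. Eef2, the elongation factor that moves the ribosome along the messenger, measured 12039, 14428, 12903 and 11353 TPM. Eef1a1, which brings aminoacyl-tRNA to the ribosome, measured 9375, 9424, 9518 and 9189 TPM. By deposited TPM Eef2 came first, and by corrected TPM Eef1a1 did, with 16192 ± 233 against 9208 ± 955, values whose 4 libraries did not overlap. The chaperone gene Hsp90ab1 followed at 8021 ± 835 corrected, and then Rpl8, a protein of the large ribosomal subunit, at 7775 ± 839; these neighbours lay within each other's SD. Alpha-tubulin genes Tuba1b (4912 ± 481 corrected) and Tuba1a (4541 ± 775) were near in level to each other and to the ribosomal protein genes Rpl4 (4678 ± 159.7) and Rplp0 (5178 ± 499). Tuba1a had 6845, 8088, 7209 and 9905 TPM, so control 4 was highest, and Tuba1b had 6264, 7771, 6941 and 7674 TPM, with control 4 inside the range of the others.

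The 10 most abundant genes held 7.93 ± 0.404% of all deposited TPM, the top 100 held 26.4 ± 0.932% and the top 1000 held 60.9 ± 1.08%. The 82 listed cytosolic ribosomal protein genes and copies named after them held 8.80%, 9.64%, 9.51% and 8.43% in controls 1 to 4, lowest in control 4, and 8.37 ± 0.547% by corrected TPM. Genes with a Gm number, such as Gm11808 (mean 6153 TPM) and Gm2000 (mean 5781 TPM), are not in this set. The 8 genes with an Eef symbol held 2.57 ± 0.178%, the 15 tubulin genes 2.65 ± 0.382% and the 86 nuclear genes for subunits of oxidative phosphorylation 3.30 ± 0.169%. The Eef set, read by symbol, includes Eef1aknmt and Eef1e1, which are not elongation factors. Tubulin genes held 2.28% to 2.72% in controls 1 to 3 and 3.15% in control 4. The cytoplasmic actin genes Actb and Actg1 together held 0.394% to 0.457% in controls 1 to 3 and 0.599% in control 4, and with the correction their mean share was 0.845 ± 0.171%.

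**Figure D1:**
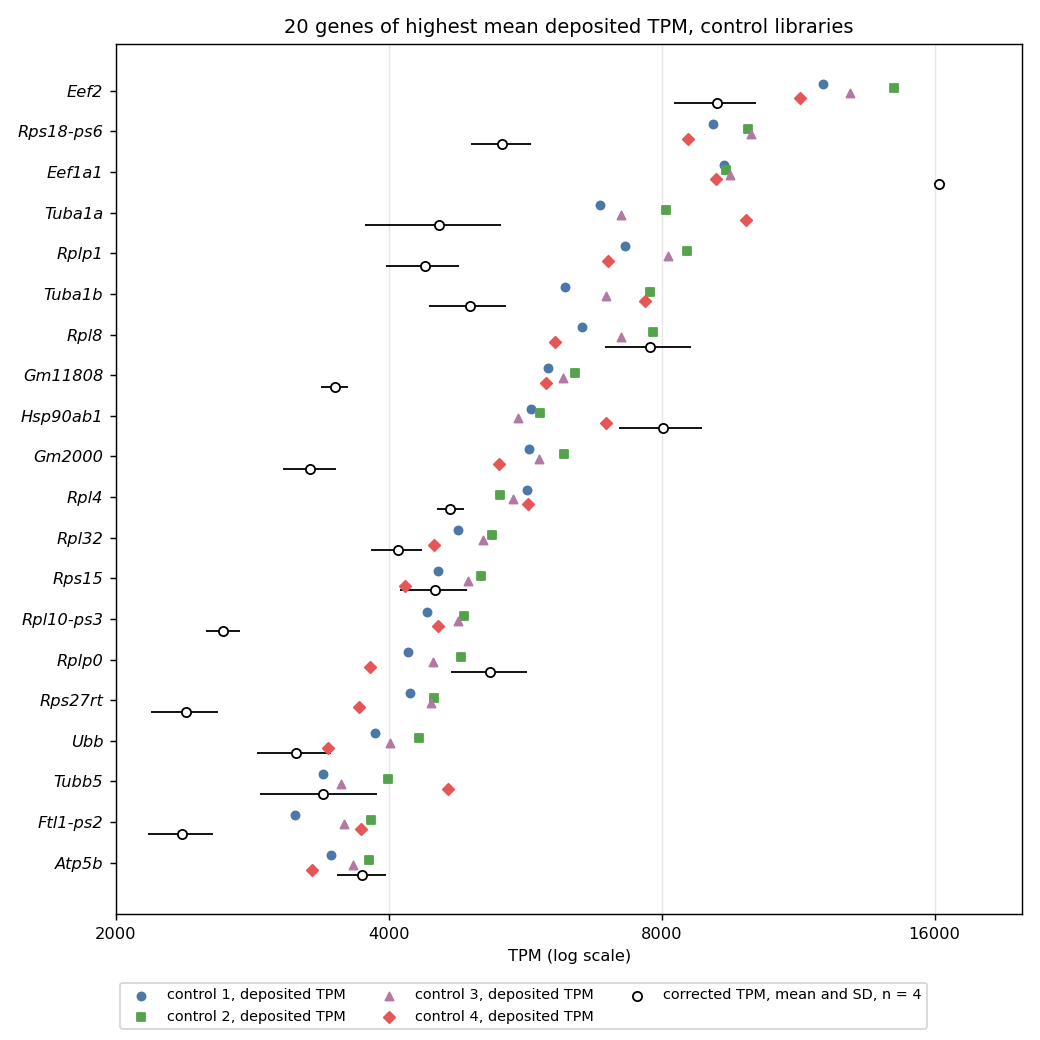
Levels of the 20 genes of highest mean deposited TPM in the control libraries. The horizontal axis is TPM on a log scale, filled symbols are the deposited values of controls 1 to 4 and open circles with bars are the corrected mean and SD (n = 4). Eef1a1 moves from the third place by deposited TPM to the first by corrected TPM, and Tuba1a is highest in control 4.

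The genes that follow were chosen after the values were seen, and gene copies and genes with a Gm number are left out. Outside the ribosome, the actin genes Actg1 (4312 ± 1028 corrected) and Actb (4142 ± 686) came next. Atp5b, the beta subunit of ATP synthase, followed (3739 ± 234), then the ferritin gene Ftl1 (3621 ± 269), the beta-tubulin gene Tubb5 (3383 ± 495) and the polyubiquitin gene Ubb (3157 ± 297). Neighbours in this order differed by less than the larger of their SDs. The deposited values of Actb (2482) and Actg1 (2172) were lower, each gene having 9 annotated transcripts. Ldha, lactate dehydrogenase, had 1198 (2958 corrected), and Prph, peripherin, an intermediate filament of peripheral neurons, had 1473 (2455 corrected). Lgals1, a secreted galactose-binding lectin, was even across libraries at 2610.2, 3063, 2826 and 2858 TPM. Mif, a cytokine with tautomerase activity, was as even at 2546, 2919.6, 2795 and 2900.2 TPM. H1f0, the linker histone of slowly dividing cells, had 2992 ± 225 TPM deposited and 1696 ± 128 corrected.

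Some of the highest values belong to copies of other genes. Reads that a gene shares with a near-identical copy are hard to divide between them, so the split of their levels is uncertain. Whether this lies behind the values below was not tested. Rps18-ps6, a copy of the small-subunit gene Rps18, had 9116, 9973, 10036 and 8548 TPM, while Rps18 itself had 16.8, 15.9, 16.4 and 13.5 TPM. The enolase copy Eno1b had 3516 TPM beside 445 for Eno1, Rpl10-ps3 had 4637 beside 142 for Rpl10, and Rpl9-ps6 had 3089 beside 34.1 for Rpl9. Genes with the symbol of a copy or with a Gm number, 512 of them, held 5.51 ± 0.188% of deposited TPM. A Gm number does not by itself show that a gene is a copy, so this share is not that of copies alone. Gapdh, the glycolytic enzyme often used as a reference gene, stood at 56.0 (94.5 corrected) and Tmsb4x, thymosin beta-4, at 3.33 (3.21 corrected). Both have many processed copies, so their levels carry the same uncertainty. The cause of these low levels was not tested.

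Messengers for ribosomal proteins and elongation factors are known to start with a short run of pyrimidines, the 5' terminal oligopyrimidine (TOP) motif, through which their translation follows growth signals. The bases around annotated starts are shown for both elongation factor genes and for 8 ribosomal protein genes, those of highest deposited TPM among the genes with an entry used here, because these groups held the most abundant messengers. Sequences are RefSeq promoter entries on GRCm38.p6, 20 bases before and 10 after the first listed start, 5′ to 3′ on the gene's strand. Capitals mark a run found within 10 bases of the start that begins with C and goes on with at least 5 bases of C or T. On the plus or minus strand named, the windows lie at chr9:78481715-78481744 (Eef1a1, minus), chr10:81176611-81176640 (Eef2, plus), chr9:64173367-64173396 (Rpl4, plus), chr10:80292411-80292440 (Rps15, plus), chr5:115559447-115559476 (Rplp0, plus), chrX:102189382-102189411 (Rps4x, minus), chr10:128626497-128626526 (Rps26, minus), chr7:99483700-99483729 (Rps3, minus), chr17:24720043-24720072 (Rps2, plus) and chr9:120127746-120127775 (Rpsa, plus).
Eef1a1: cgtgtgctggctccgCCCTCTTCCCgaggg
Eef2: cgacctataaaaggccgggcgttgacgtca
Rpl4: agtctttccttttcctgtgggagcagccgg
Rps15: gccctcccggcagagctcgcgataactgcg
Rplp0: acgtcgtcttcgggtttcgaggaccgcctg
Rps4x: aaagtctgaggctgggcggagcaacccagg
Rps26: agcgggtcgggcaagccgccggatCCTCTT
Rps3: gaacacttgcaagggtcgccgcgctgcgcg
Rps2: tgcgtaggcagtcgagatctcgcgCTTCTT
Rpsa: tggctgtgggttatttaaggacgtcatttc
In the windows of Rpl4 and Rps15 such a run begins more than 10 bases before the start, so it was neither marked nor counted. A run within 10 bases of the start was found in 3 of these 10 windows, those of Eef1a1, Rps26 and Rps2, and not in the other 7. Counting any listed start of a gene, such a run stood at 31 of the 56 present ribosomal protein genes with an entry (55.4%), at 30.9% of those of the 100 most abundant genes with an entry, at 22.6% of present genes with one and at 21.1% of all 27025 entries. The motif was searched on the gene's own strand, and a match describes letters near an annotated start only.

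Transcription factors were led by a stress factor and by the sympathetic circuit. Atf4, the effector of the integrated stress response, measured 2127, 2091, 2094 and 2088 TPM and had the highest corrected level of the 203 listed members (2222 ± 19.9). Hand2 measured 1791, 1833, 1815 and 1521 TPM (986 ± 82.7 corrected), lowest in control 4. Phox2a measured 980.3, 1054, 1022 and 703 TPM (582 ± 99.1 corrected), again with control 4 below the other 3. These 3 genes kept the first 3 places under both values, and their libraries did not overlap.

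Below them the order depended on the length used. Myc, the proliferative bHLH factor, had 232, 216, 219.7 and 109.7 TPM and took the fourth place by corrected TPM (494 ± 144), while Mycn, the relative amplified in many human neuroblastomas, had 53.3, 42.7, 43.5 and 32.1 TPM (43.4 ± 8.74 corrected). Every control library had more Myc than Mycn. Ddit3 (CHOP), induced by ATF4 under prolonged stress, and Atf5 came next at 361 ± 94.5 and 361 ± 55.7 corrected, values that did not differ beyond their spread. Insm1, a zinc finger repressor of neuroendocrine cells, measured 498, 449, 476 and 283 TPM. Sox4, a factor of immature neurons, measured 392, 247, 312 and 312 TPM. Id1, an inhibitor of bHLH factors, measured 247, 242, 238 and 119.8 TPM. Control 4 was lowest for Id1, Myc and Ddit3, with no overlap with controls 1 to 3.

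**Figure D2:**
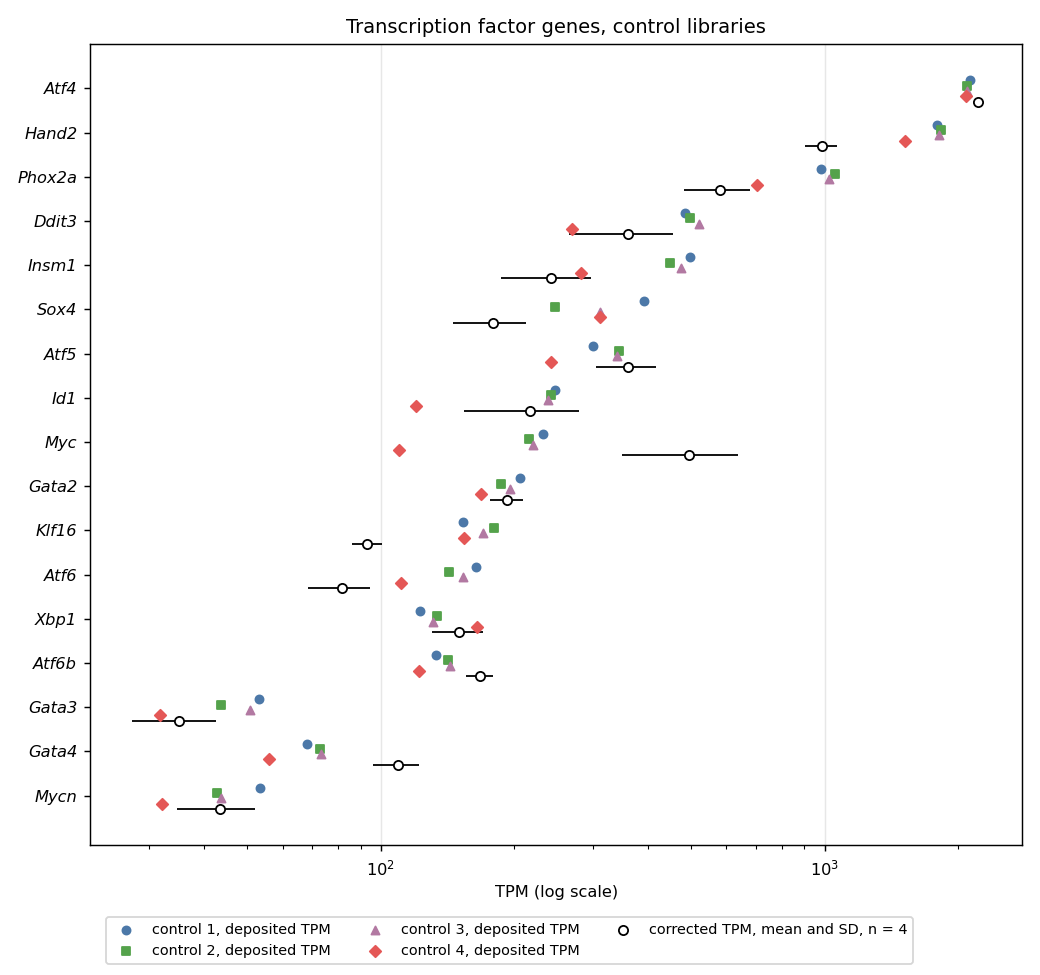
Deposited TPM of controls 1 to 4 (filled symbols) and corrected mean with SD (open circles, n = 4), on a log axis, for 14 of the 15 transcription factor genes of highest mean deposited TPM and for Gata3, Gata4 and Mycn. Atf4, Hand2 and Phox2a lead under both values, and the control 4 symbol lies left of the others for Hand2, Phox2a, Ddit3, Insm1, Id1 and Myc.

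Of the rest of the sympathetic circuit, Gata2 measured 206, 187, 195 and 168 TPM. Gata3, one of the 3 genes given as marks of these cells, measured 53.0, 43.5, 50.6 and 31.8 TPM, with control 4 lowest and no overlap with the others. Isl1, the LIM homeodomain factor of sympathetic and motor neurons, stood at 49.2 ± 9.42 TPM deposited and 48.2 ± 9.27 corrected. Hand1 averaged 0.233 TPM and Tfap2b 2.11. Gata4, better known from heart and endoderm, was present at 68.0, 72.7, 73.4 and 56.0 TPM (109 ± 12.9 corrected), while Gata1, Gata5 and Gata6 were not among the genes of the tables.

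HOX genes record position along the body axis. Of 39 in the list, 7 were in the tables, all of the HoxC cluster, and 4 were present. Hoxc10 measured 112, 100.2, 102 and 136 TPM and Hoxc9 49.1, 55.4, 57.2 and 48.8 TPM, with Hoxc6 at 19.6 and Hoxc4 at 4.73; Hoxc13 was near 0. Their co-factors of the TALE family were present for 11 of 18, led by Pbx2 (78.6, 92.4 corrected). SOX factors had 5 of 20 present: Sox4, Sox8 (94.6, 76.0 corrected), Sox12 (56.2, 61.7 corrected), Sox9 and Sox11 (14.2, 8.05 corrected). Sox10, the factor of neural crest and glia, was near 0. Of 26 neural bHLH genes 3 were present, Hand2, Atoh8 and Ascl3, while Neurod1 and Neurog3 were near 0. Sensory-type POU factors Pou4f2 (33.7, 19.1 corrected) and Pou4f1 (11.3, 7.20 corrected) were present. LIM and PAX factors that mark other parts of the nervous system included Pax6 at 2.43 (5.36 corrected) and Lhx2 at 10.1 (10.6 corrected). The corrected mean of Lhx2 was above that of Pou4f1.

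Nuclear receptors were present for 27 of 49 and mostly modest. The thyroid hormone receptor gene Thra had 66.7 (78.9 corrected), the retinoid X receptor gene Rxrb 55.1 (113 corrected) and the orphan receptor gene Esrra 58.0 (77.7 corrected). Esrra and Pparg (15.2, 13.5, 15.4 and 18.5 TPM) are named in the series title by their proteins. Nr5a1 and Esrrg were near 0 and Pgr was not among the genes of the tables. All 7 E protein and ID genes and 12 of 13 genes of the MYC network were present, with Mlxipl near 0. The ATF and CREB family had 15 of 18 present. Its members of the unfolded protein response were Xbp1 (138, 150.0 corrected), Atf6 (143, 81.6 corrected) and Atf6b (135, 167 corrected).

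Genes known as targets of ATF4, chosen after the values were seen, differed in level and in pattern. Asns, asparagine synthetase, had 1559.8, 1626, 1592 and 1492 TPM, a coefficient of variation of 3.66%. Trib3, a pseudokinase of the same response, had 1108, 1332, 1231 and 528 TPM, and Chac1, which degrades glutathione, had 1155, 1309, 1219.7 and 670.4 TPM. Control 4 had the lowest value of both by a wide gap. Sesn2 (431, 474, 450.4 and 260.3 TPM) and Adm2 (599, 659, 635 and 357 TPM) also had their lowest value in control 4. Ddit4, an inhibitor of mTORC1 signalling, went the other way, with 1239, 1317, 1300.1 and 1875 TPM, highest in control 4. Slc7a11, the cystine transporter, was far lower than the rest at 25.7, 16.1, 19.6 and 20.1 TPM. Serine and one-carbon enzymes Phgdh (977), Psat1 (876), Shmt2 (639) and Mthfd2 (677 TPM) were at like mean levels. No untransfected library was used here, so these levels have no untreated value beside them.

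The catecholamine pathway was present in part. Of its 17 listed genes 10 were present. Th, tyrosine hydroxylase, the rate-limiting enzyme, had 1.27, 0.895, 0.937 and 1.05 TPM, straddling the 1 TPM line. Th has more than 1 annotated transcript, and its corrected level of 1.88 ± 0.309 was above 1 in each library, so its call depends on the length. Ddc, the decarboxylase, had 1.81, 1.67, 2.27 and 3.80 TPM. Dbh, dopamine beta-hydroxylase, was higher at 65.3, 72.5, 66.0 and 54.1 TPM, and the vesicular monoamine transporter Slc18a2 had 51.9, 38.4, 44.4 and 43.8 TPM. Dbh exceeded Ddc in each library, by deposited and corrected TPM alike. Of the genes for the tetrahydrobiopterin cofactor of Th, Pcbd1, which recycles the cofactor, had 327, 319, 295 and 303 TPM (248 ± 11.7 corrected). Gch1, GTP cyclohydrolase, had 259, 266, 260.4 and 223 TPM (144 ± 11.2 corrected), and did not differ beyond the spread from Qdpr, another recycling enzyme (140.2 ± 15.95 corrected). Spr had 53.1 (55.8 corrected). The noradrenaline transporter gene Slc6a2 was near 0, and Pnmt, Slc6a3, Maoa and Maob were not among the genes of the tables.

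Other transmitter systems were mostly at their lower limits. Of 5 acetylcholine genes only Ache, the esterase, was present (5.14, 6.70, 5.95 and 11.04 TPM, highest in control 4), and Chat averaged 0.0356 TPM. Of 9 GABA genes the breakdown enzymes Abat (37.3, 35.6 corrected) and Aldh5a1 (6.40, 3.63 corrected) were present, Gad2 was near 0 and Gad1 was not among the genes of the tables. Glutamate genes present included Glul (118, 124 corrected) and Gls2 (15.4, 35.5 corrected), both general metabolic enzymes, and the vesicular transporter gene Slc17a7 (1.47, 2.00 corrected). Both tryptophan hydroxylase genes, the first step of serotonin synthesis, were present, with Tph2 at 27.5, 18.4, 18.6 and 15.8 TPM and Tph1 at 7.66, 6.59, 7.01 and 7.87 TPM. The serotonin transporter gene Slc6a4 averaged 0.0475 TPM.

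Secretory granule genes were among the most abundant of all transmitter lists. All 12 members in the tables were present, and their sum was 5876, 5261, 5353 and 6040.0 TPM in controls 1 to 4. Chgb, chromogranin B, had 2958, 2317, 2475 and 2879 TPM (1506 ± 177 corrected), and Vgf, a granule peptide precursor, had 707, 852, 789.7 and 899.6 TPM (1276 ± 131 corrected). Scg2, Scg5 and Chga had 442 (481 corrected), 478 (311 corrected) and 427 (288 corrected). The processing enzymes were uneven: Cpe, carboxypeptidase E, had 134 (114 corrected), Pam, the amidating enzyme, 4.26 (4.93 corrected), and the convertase Pcsk2 1.33 (0.801 corrected). Of 32 neuropeptide genes 4 were present: Npy at 20.3, 21.2, 15.9 and 50.1 TPM, Pomc at 7.42, 7.03, 7.35 and 3.88 TPM, Cartpt and Cort. Npy was highest and Pomc lowest in control 4. Cort rested on 9 to 17 counts per control library, and its corrected mean was under 1 TPM (0.906 ± 0.259).

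Genes of vesicle release were present for 23 of 26. Cplx1, complexin 1, which clamps vesicle fusion, had 535 (363 corrected), the calcium sensor relative Syt4 333 (189 corrected), Vamp3 219 (145 corrected), Sv2c 204 (154 corrected) and Cplx2 158 (89.7 corrected). The fast calcium sensor Syt1 had 61.3, 36.9, 48.9 and 77.0 TPM and Snap25 71.6 (47.9 corrected). Sv2b and Rims1 were near 0.

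Receptors for the trophic factors of sympathetic neurons were among the highest of the receptor lists. Ret, the GDNF family receptor kinase, had 839, 827, 801 and 862 TPM (694 ± 21.5 corrected). Ngfr, the p75 receptor, had 478, 512, 499.8 and 438 TPM. The co-receptors that bind the ligands of RET were far lower, with Gfra1 at 1.52 and Gfra2 at 0.718, Gfra4 near 0 and Gfra3 not among the genes of the tables. Ntrk2 was not among them either, and Ntrk3 had 8.74 (7.88 corrected). Alk, a receptor kinase mutated in some human neuroblastomas, had 23.2, 19.97, 20.9 and 21.2 TPM.

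Among acetylcholine receptors 6 of 21 were present. Chrna3, the ganglionic nicotinic subunit, had 141, 115, 127 and 110.3 TPM, and its partner Chrnb2 38.4, 42.7, 41.8 and 27.7 TPM, while Chrnb4, the other ganglionic partner, averaged 1.61. Chrm4, an inhibitory muscarinic receptor, had 97.6, 116, 98.9 and 114 TPM. Htr3a, the channel-forming serotonin receptor, had 163, 181, 162 and 131 TPM, and its partner Htr3b 2.50 on average. Adrenergic and dopamine receptors had 2 of 14 present, Adra2b (4.51, 5.06 corrected) and Drd4 (2.14, 1.32 corrected). Of 26 glutamate receptor genes 4 were present, led by Grik5 (34.5, 53.6 corrected) and Grin1 (14.5, 34.8 corrected), with Gria1 and Grin2a near 0. GABA and glycine receptors had 3 of 23 present.

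**Figure D3:**
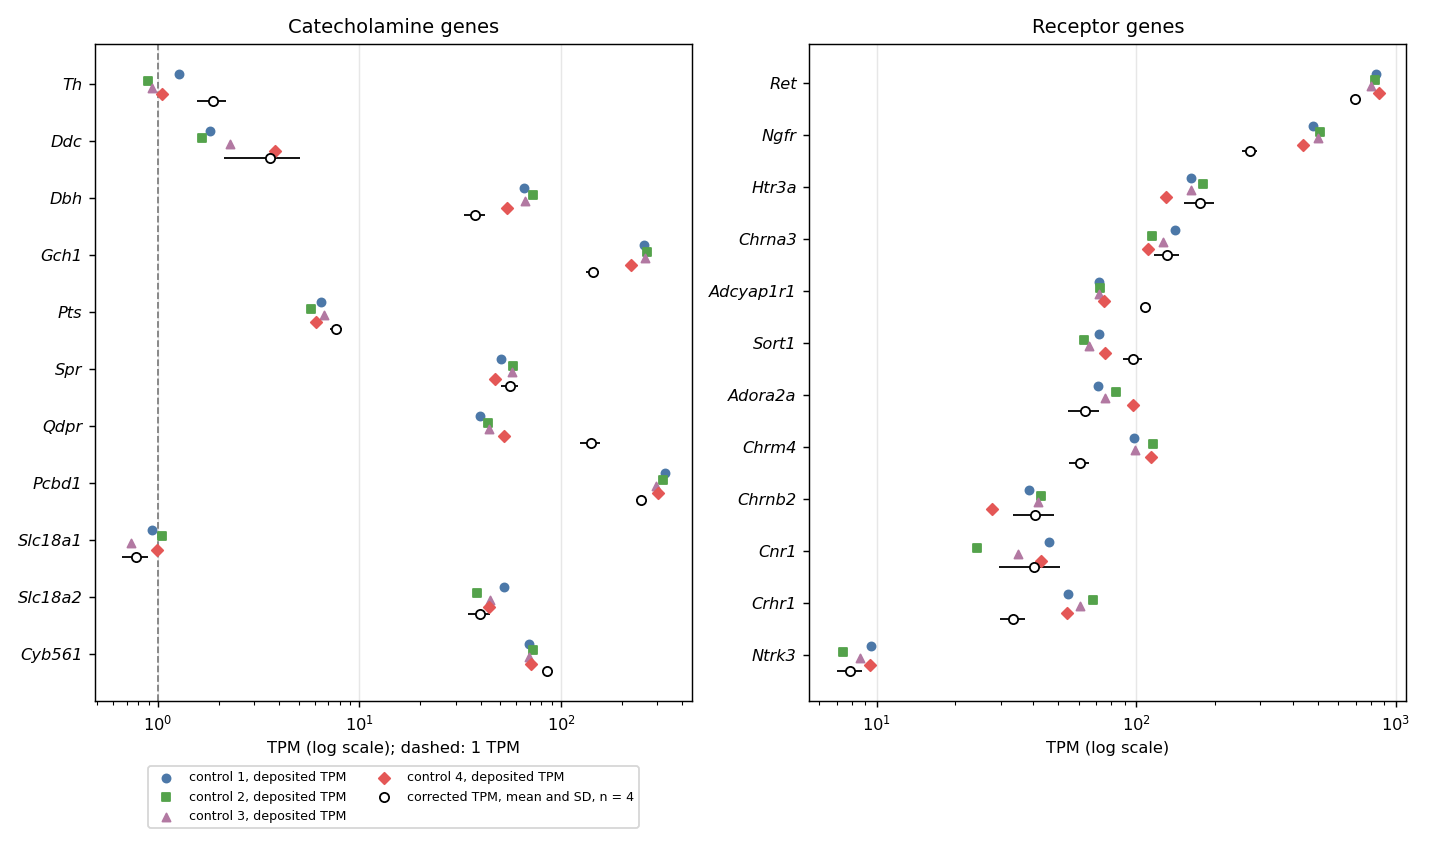
Levels of catecholamine genes that were present or between the 2 levels (left) and of 12 receptor genes (right), on log axes of TPM. Filled symbols are deposited values of controls 1 to 4, open circles the corrected mean with SD (n = 4), and the dashed line marks 1 TPM. Th and Slc18a1 lie at the line, while Pcbd1, at a corrected mean of 248, is the highest of the catecholamine genes drawn.

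The sigma-2 receptor gene Tmem97 was the highest of the small-molecule receptor list at 706, 812, 765 and 832 TPM. Adora2a, an adenosine receptor, had 81.8 (63.1 corrected). Cnr1, the main brain cannabinoid receptor, had 45.9, 24.2, 35.1 and 42.9 TPM. Cnr1 was lowest in control 2. Peptide and hormone receptors were present for 17 of 47: Adcyap1r1, the PACAP receptor, had 71.6, 72.6, 71.8 and 75.3 TPM, Crhr1, for corticotropin-releasing hormone, 54.3, 68.2, 60.5 and 54.1 TPM, Bdkrb2, for bradykinin, 49.5 (28.04 corrected), and Glp1r 26.4 (21.1 corrected). Axon guidance receptors were present for 16 of 35, with Plxnb2 (136, 172 corrected), Unc5b (126, 174 corrected), Neo1 (82.6, 109 corrected) and Plxna1 (76.4, 81.7 corrected) the highest, and Dcc, Robo1 and Robo2 near 0. TGF-beta family receptors were present for 9 of 14, with Eng (40.7, 66.4 corrected) and Acvr1b (91.6, 51.9 corrected) the highest; Tgfbr2 was not among the genes of the tables. WNT and hedgehog receptors were present for 12 of 18, with Lrp5 and Fzd7 (50.2, 28.4 corrected) the highest when corrected. For this list 5 of 12 genes were over 1.5 times higher in control 4, against 9.91% of all genes tested, and 5 lower in control 2, against 13.9%. Control 4 is part of the mean that control 2 was set against, so these counts are not independent. Cytokine receptors present numbered 14 of 32, with Tnfrsf1a (196, 217 corrected) and Ltbr (249, 166 corrected) the highest.

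On the cell surface, the amino acid transporter pair Slc7a5 and Slc3a2 and the lactate transporter chaperone Bsg were the highest of 30 tetraspanin and common surface genes. Slc7a5 had 3410.3, 3719, 3558 and 3050.2 TPM (2262 ± 186 corrected), Slc3a2 644 (946 ± 38.0 corrected) and Bsg 1117 (2215 ± 343 corrected), so that Slc7a5 and Bsg did not differ beyond their spread after correction. Cd9 had 690.3 (559 corrected) and Tspan31 351 (315 corrected); Cd44 was near 0. Neural adhesion genes had 8 of 23 present, with Ncam1 at 101, 86.2, 94.0 and 103 TPM and L1cam at 71.6, 69.1, 69.5 and 82.3 TPM. Classical cadherins had 4 of 22 present, Cdh22 being the highest (58.9, 56.1 corrected) and Cdh2, N-cadherin, at 4.05 (3.41 corrected). Itgb1 led the 13 present integrins with 476, 317, 388 and 588 TPM. The glypican gene Gpc1 had 110.4 (82.4 corrected), and Gpc2, a neuroblastoma target, averaged 0.0708. Cd276 (B7-H3) had 80.1 (93.9 corrected). B4galnt1, which makes the precursor core of complex gangliosides, had 13.5 (19.97 corrected), and St8sia1, the GD3 synthase, was not among the genes of the tables.

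MHC class I presentation was present in 14 of 15 genes, all but Nlrc5, the transactivator of this pathway, which was near 0. B2m, the light chain, had 1694, 1663, 1688 and 1569 TPM, H2-D1 439, 512, 453 and 512 TPM and H2-K1 141, 155, 148 and 197 TPM; H2-K1, with 16 annotated transcripts, had 499 ± 78.2 when corrected, within the spread of H2-D1 (479.9 ± 38.6). Class I genes have near-identical relatives, so the split between them is uncertain. None of the 14 genes of this list tested passed 1.5 times in control 4 or control 2, against 9.91% of all genes tested higher and 6.25% lower in control 4, and 13.9% lower in control 2; for so short a list those shares are 1 or 2 genes each.

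The label of the cells was checked against marker lists. General neuronal genes were present in 16 of 20 and sympathetic neuroblast and chromaffin genes in 18 of 24. The tables hold all 20 of the first list and 23 of the second. Of all genes in the tables, each with at least 1 count over the 12 libraries, 71.2% were present. The shares of both lists were near this, so the counts alone do not bear out the label. Tubb3, neuronal beta-tubulin, had 979.7, 1146, 1039 and 1405 TPM, and Mapt, tau, 57.1, 53.8, 55.6 and 79.6 TPM; with Gata3 these are the 3 marks given for the cells, and all were present. Stmn3 (1752, 993 corrected), Uchl1 (1695, 1693 corrected) and Prph were the highest neuronal genes. Of the neurofilament genes Nefh (286, 162 corrected) and Ina (229, 129.6 corrected) were present, Nefm averaged 0.0414 and Nefl was near 0. Dcx, of migrating young neurons, was near 0 and Rbfox3 (NeuN) averaged 0.351.

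Marker lists of other cells varied. The sensory neuron list had 6 of 14 present, with a summed level of 291 to 333 TPM per control library. Only 8 of its members were in the tables, and 6 of 8 is near the 71.2% of all genes in the tables. The forebrain neuron list had 5 of 16 present, 9 being in the tables, with 15.9 to 26.2 TPM. The endothelial and mural list had 4 of 13 present, 11 being in the tables, with 22.1 to 26.3 TPM. Microglia and leukocyte genes had 0 of 16 present, 11 being in the tables. Their summed level was 0.0908 to 1.29 TPM per control library, and Ptprc, Cx3cr1 and Csf1r were near 0. Among fibroblast genes Fbln1, fibulin 1, had 521, 608, 558 and 649.6 TPM and Fn1, fibronectin, 29.9 (101 corrected), whereas Col1a2 was near 0 and Col1a1 averaged 0.626. Of muscle genes Myh3, embryonic myosin heavy chain, had 77.3, 60.1, 65.7 and 95.9 TPM and Des 7.24 (5.08 corrected), with Ckm and Ttn near 0. Vil1, villin, a gut epithelial gene, had 36.5, 34.4, 33.95 and 33.7 TPM, Foxa1 9.90 (6.08 corrected) and Krt8 4.01 (2.27 corrected), with Epcam near 0. Lin28a, which blocks maturation of let-7 microRNAs, had 104, 90.4, 98.7 and 123 TPM, with Pou5f1 and Sox2 not among the genes of the tables. Pmp22 (219, 288 corrected) was the highest of 4 present Schwann cell genes, while Sox10 was near 0. Of the mesenchymal-type list 8 of 24 were present, 17 being in the tables, led by Vim (656, 677, 648 and 909 TPM) and Ngfr.

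**Figure D4:**
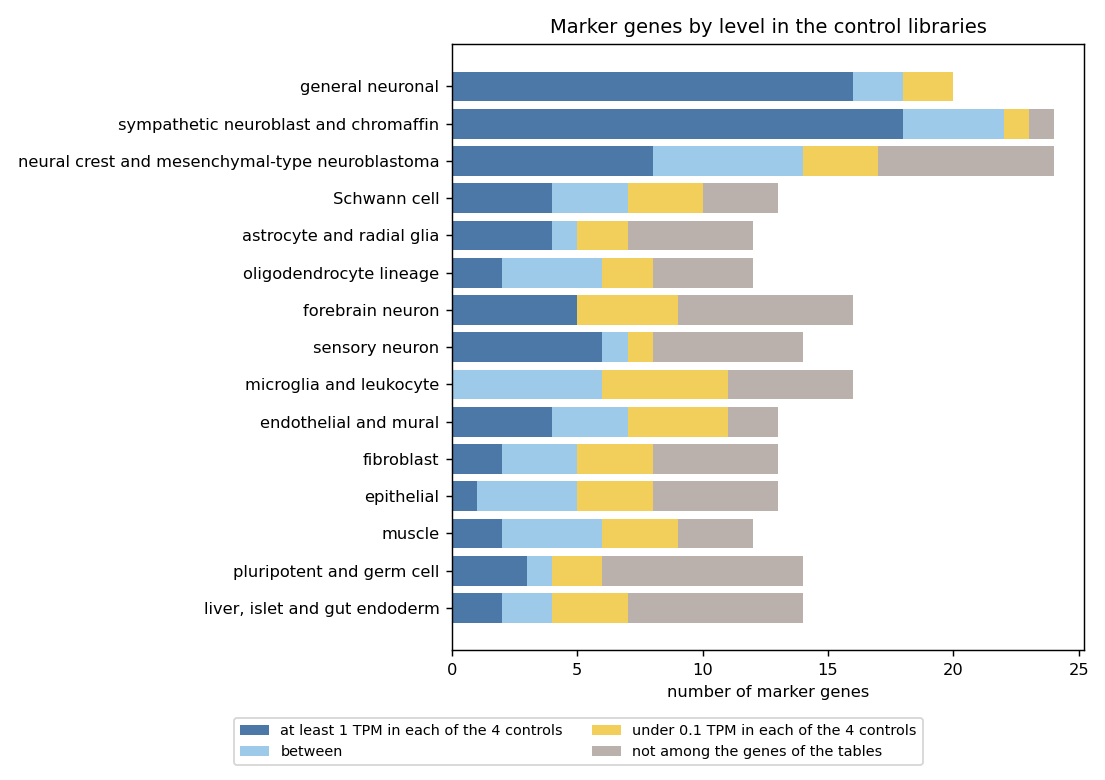
Number of marker genes of each list by their level in the 4 control libraries: present, between, near 0, or not among the genes of the tables. Of the neuronal and sympathetic lists 16 of 20 and 18 of 24 are present, with 20 and 23 members in the tables. These shares are near the 71.2% of all genes in the tables. The leukocyte list has 0 of 16 present, with 11 in the tables.

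Over all 57 lists, 1028 genes were sought, 735 were in the tables, 431 were present, 160 lay between the levels and 144 were near 0. The members with the widest spread show what moved with library 4. Aldoc, a glycolytic enzyme also used as an astrocyte marker, had 18.9, 21.9, 19.8 and 80.2 TPM, and Eno2, neuronal enolase, 37.5, 38.6, 36.3 and 97.0 TPM. The summed astrocyte list was 39.2 to 41.7 TPM in controls 1 to 3 and 120.2 in control 4, with Aldh1l1 and S100b near 0 and Aqp4, Gja1 and Slc1a2 not among the genes of the tables. Glycolytic genes chosen after the values were seen had the same direction: Aldoa had 643, 773, 691 and 1162 TPM, Tpi1 733, 855, 804 and 1246 TPM and Pgk1 172, 176, 178 and 287 TPM. Scd2, a fatty acid desaturase, had 1634, 1466, 1502 and 2971 TPM. In mimic 4 and inhibitor 4, Eno2 had 98.0 and 93.9 TPM against 31.6 to 38.2 and 29.8 to 34.5 in the libraries 1 to 3 of those groups, and Aldoc had 84.5 and 81.4 against 16.8 to 21.7 and 19.1 to 22.6. The level of a gene of this kind in the 4 controls is thus a mean of 3 like libraries and 1 unlike.

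**Figure D5:**
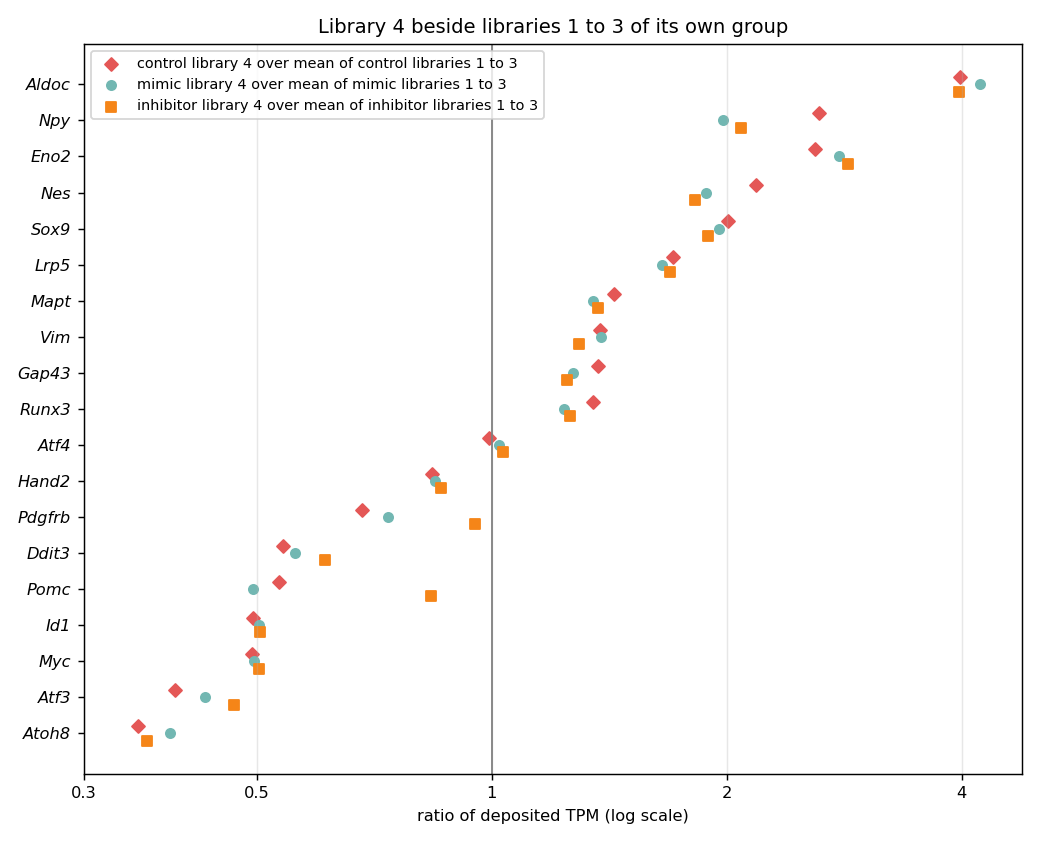
Ratio of library 4 to the mean of libraries 1 to 3 of its own group, on a log axis, for 19 genes with 1 control library far from the others; diamonds are control, circles mimic and squares inhibitor. For each of these genes but Atf4 the 3 ratios lie on the same side of 1, and Atoh8, Atf3, Myc and Id1 are lower in library 4 of each group while Aldoc, Eno2 and Npy are higher.

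Other genes of wide spread had their lowest control value in control 2. Tfrc, the transferrin receptor, had 54.8, 31.9, 37.8 and 89.1 TPM, Fzd5 9.34, 6.10, 9.10 and 20.3 TPM, Lgr4 6.75, 4.36, 5.42 and 11.1 TPM, Bmpr1a 50.9, 24.4, 40.2 and 71.7 TPM and Itgb3 4.67, 3.10, 4.57 and 11.99 TPM: control 4 was highest and control 2 lowest for each of them. Sp6 had 13.7, 1.31, 16.3 and 17.3 TPM, and the low value in control 2 rested on 106 counts.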

How the data were processed

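RNA sequencing of Neuro-2a cells gave 12 libraries, 4 per treatment label, and the 4 labelled miR-Con were described. Random-primed VAHTS libraries were prepared from total RNA, per the labels. The authors deposited whole-number read counts per gene and TPM values for the same 15767 genes. The submitters' processing notes name fastp, STAR, featureCounts, StringTie, edgeR and the build GRCm39; no source used here gives versions, roles, strandedness or gene filters. Exon lengths came from GENCODE M21 on GRCm38, another build, matched by gene identifier for 15738 genes, of which 15710 are protein coding; promoter windows came from RefSeq on GRCm38.p6. Symbols came with the tables for 15499 genes and 260 more from a reference table, leaving 8 without one.

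No test between groups was run, and the only criterion of spread was Dixon's ratio within the controls: levels, counts of genes past a threshold and the spread over libraries are given, with Python 3.11.15, pandas 2.3.3 and numpy 2.4.6. The steps were tested on simulated data. Chi-square per degree of freedom between pairs of control libraries was 34.0 to 241, so none was taken as a copy of another, and rank correlations across genes were 0.980 to 0.990. The 57 lists and the rule for named genes were chosen with earlier results of these data known. The rule took the 20 genes of highest TPM, the 15 leading transcription factors, up to 5 present and 8 near 0 or not listed members per list, the 3 given marks, and the 3 most variable members of each class at 5 TPM or more. Members between the 2 levels, gene copies, ATF4 targets, glycolytic genes and the other genes outside the rule were named after their values were seen. Values of some list members are not reported here. A symbol that the tables hold more than once was read from the identifier the reference pairs with it.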

Additional observations from a re-analysis of the deposited data

Results flagged for a closer look

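For the named genes and 13 gene group shares, the gap of the highest or lowest control library to its nearest neighbour was compared with the range of the 4. In 19 of 213 genes the gap exceeded the 95% critical value of Dixon's ratio for 4 samples, which chance passes in about 1 of 20 groups. The named genes include members taken for their wide spread, so this count cannot be read against that share. In 18 of these genes the library apart was control 4. Control 4 was the lowest for Hand2 (1521 TPM), Ddit3 (270.2), Id1 (119.8), Myc (109.7), Atf3 (42.5), Atoh8 (5.83), Pdgfrb (5.63) and Pomc (3.88). It was the highest for Vim (909 TPM), Gap43 (579.9), Eno2 (97.0), Aldoc (80.2), Mapt (79.6), Sox9 (62.9), Npy (50.1), Runx3 (48.3), Lrp5 (38.0) and Nes (35.0). Atf4 was the exception, where control 1 was highest at 2127 TPM although the 4 values span only 2127, 2091, 2094 and 2088 TPM. The share of TPM in 17 aminoacyl-tRNA synthetase genes was lowest in control 4 at 0.647%, against 0.705% to 0.714% in the others. For each of these genes but Atf4, library 4 of the mimic and of the inhibitor group lay on the same side of the mean of its own companions. For Pdgfrb it was not the lowest library of those groups. Inhibitor 4 (6.01 TPM) lay above inhibitor 1 (5.32) and inhibitor 2 (5.41), and mimic 4 (5.47) above mimic 2 (5.30).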

How the results depend on the processing

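No paired analysis was possible because no result came from a test between groups. Depth limits mainly levels under 1 TPM, since a value close to 1 TPM rested on a median of 73.5 counts. Some genes above 1 TPM rested on far fewer, such as Cort, with 9 to 17 counts in the control libraries. The length behind the deposited TPM limits any order of genes. With TPM recomputed from the exon union, the top 10, 100 and 1000 genes held 7.03%, 24.3% and 57.6% of TPM, and adrenergic and dopamine receptors had 1 present gene in place of 2; 157 of 213 named levels moved by more than their SD. Without the 10 most abundant genes the same shares, taken over the genes that follow, were 4.69%, 21.3% and 57.7%. At 2 TPM for presence, the lists that moved were AP-2 and TEAD factors (1 in place of 3), adrenergic and dopamine receptors (1 in place of 2), integrins (8 in place of 13), astrocyte and radial glia markers (2 in place of 4) and forebrain neuron markers (2 in place of 5). Near 0 under 0.5 TPM counted 3231 genes in place of 1776. Past 2 times, control 4 was higher for 258 genes and lower for 180, and among genes of at least 10 TPM for 539 and 393 at 1.5 times. Leaving out 1 control at a time gave 857 to 1741 higher and 719 to 767 lower genes, and moved no list count of present genes by over 1.5 times. Using controls 1 and 3 only, an alternative chosen after seeing the data, moved none of the 57 list counts of present genes by that much.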

Other observations

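A few genes were high in most libraries and close to 0 in others. Among 9742 genes with a median of at least 5 TPM over the 12 libraries, 19 had 1 or more libraries under 1/10 of their own median, and 10 had such a control library. This count was made after the values were seen. Raver1, an RNA-binding protein gene, had 230.9, 231.4, 0 and 0.0538 TPM in controls 1 to 4. Rps18-ps6, even in the controls, had 0 counts in mimic 1 and mimic 2 and 63207 and 48429 in mimic 3 and 4. Sp6 had 1.31 TPM in control 2 and 0 in mimic 1, against 13.4 to 19.9 in the other 10 libraries. Gm49510 had 0.426 TPM in control 1 and 271.1 in control 3. The cause was not tested, and a mean over libraries lies between unlike values for these genes.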
